A study of Mus musculus with 6 samples.

Results

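The 47 genes examined here encode the subunits, assembly chaperones, activators and inhibitor of the proteasome, and were taken from a count table of 53084 genes in mouse muscle. They were the protein-coding genes whose symbol begins with Psma, Psmb, Psmc, Psmd, Psme, Psmf or Psmg followed by a digit, without the immunoproteasome genes *Psmb8*, *Psmb9* and *Psmb10*, which are described separately. One of them, *Psmc3ip*, shares only the symbol, since it encodes a protein of meiotic recombination. The genes lie on 16 chromosomes.

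RNA of muscle, of a kind not named further in the labels, was sequenced from 3 *Tarsl2*+/+ (WT) and 3 *Tarsl2*-/- (KO) mice to ask what the loss of *Tarsl2*, a threonyl-tRNA synthetase-like gene, does to gene expression. All were male C57BL/6 mice aged 6 weeks that were raised in a specific-pathogen-free room on standard chow, with 1 library per mouse. The deletion removed exon 3 of *Tarsl2* in the germline through CRISPR/Cas9 in C57BL/6J zygotes, so that it was present in every tissue and not only in muscle. Library totals lay between 16176591 and 20123767 counts, and *Tarsl2* itself had 456, 605 and 464 counts in the WT mice 583, 584 and 595 against 40, 30 and 37 in the KO mice 588, 589 and 591. The sample records describe a retinal extraction, whereas 5 retina markers had at most 7 counts in any library and the muscle actin gene *Acta1* had at least 370408.

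The 26S proteasome degrades proteins that carry ubiquitin chains. Its barrel, the 20S core, is a stack of alpha rings and beta rings, with the cutting sites inside on the subunits of *Psmb5*, *Psmb6* and *Psmb7*. A 19S cap binds the ubiquitin chain, removes it, and unfolds and feeds in the protein through a ring of ATPases. In muscle, the ubiquitin-proteasome system removes myofibrillar proteins when the tissue wastes, and its genes are known to be raised together by the transcription factor encoded by *Nfe2l1* when proteasome activity is short.

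Promoter sequence is shown first because the genes of a shared complex can share promoter letters. RefSeq start sites on GRCm38.p6 were available for 39 of the 47 genes, with 42 windows from 250 bases before to 50 bases after a start site, among 32851 windows of all genes and 13587 windows of genes tested in this muscle. Of the 12 motifs searched on both strands, the core bound by ETS factors, CCGGAAG, was present in 38.1% of the proteasome windows, in 8.86% of all windows and in 16.2% of the windows of tested genes. The core of the antioxidant response element, TGACNNNGC, at which *Nfe2l1* products bind, was present in 14.3%, 12.4% and 14.4% of the same windows. The GC box GGGCGG was present in 54.8% of the proteasome windows, 35.7% of all windows and 60.5% of those of tested genes, and CCAAT in 33.3%, 37.4% and 37.3%. These shares describe letters and not binding. The stretches below are from members described further on, read 5′ to 3′ on the strand of the gene, with the ETS core (the first 4) or the antioxidant element core (the last 2) in capitals.
*Psmd6*, chr14:14120974-14121000, minus strand: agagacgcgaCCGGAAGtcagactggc
*Psmd4*, chr3:95042723-95042749, minus strand: tacagctgttCCGGAAGctgctgcgaa
*Psma6*, chr12:55398813-55398839, plus strand: cgccggtgctCCGGAAGcagtagccat
*Psmg3*, chr5:139826874-139826900, minus strand: cggacaggaaCCGGAAGttctcgccgg
*Psmb5*, chr14:54618024-54618052, minus strand: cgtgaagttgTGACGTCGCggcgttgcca
*Psmb6*, chr11:70525338-70525366, plus strand: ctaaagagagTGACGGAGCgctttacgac

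Of the 47 genes, 45 had enough counts to be tested, among them every constitutive subunit of the core and cap on the list. The exceptions were *Psma8*, an alpha subunit of the testis, with 4, 3 and 6 counts in the WT mice and 7, 2 and 5 in the KO mice, and *Psmb11*, the thymus-specific beta subunit, with 0 counts in every mouse but KO mouse 591, which had 2. A count of 0 allows up to 3 counts, which is between 0.149 and 0.185 CPM (counts scaled to the size of the library). To compare genes with each other, CPM with TMM normalization (trimmed mean of M-values, which sets the libraries to a shared scale) was divided by the exonic length in kilobases that the count table gives. On this scale and over all 6 mice, the median level was 141.6 CPM per kilobase in the beta ring, 83.8 in the 19S ATPases, 74.6 in the alpha ring, 33.8 in the 19S non-ATPases, 21.5 among the activators and inhibitor and 13.1 among the assembly chaperones. The core and its motor thus had the higher transcript levels per length, and the chaperones, which leave the particle after assembly, the lower ones.

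**Figure D1:**
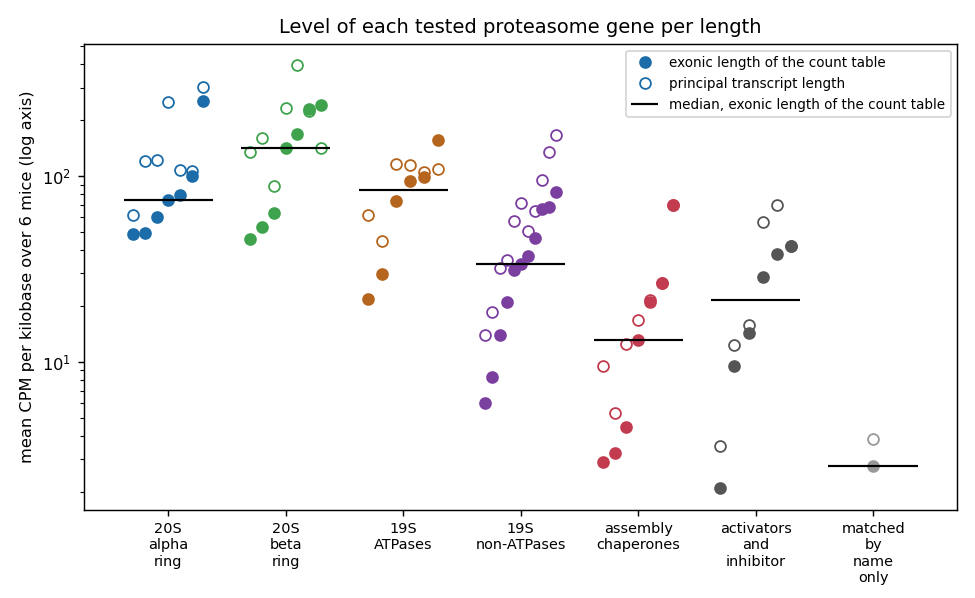
Mean level of the 45 tested genes over all 6 mice in CPM per kilobase, on a log axis, grouped by role, with filled points for the exonic length of the count table, open points for the principal transcript and a line at the median of the filled points. The filled points run from 2.08 for *Psmf1* to 254.3 for *Psma6*.

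Within a role the levels were not equal. In the alpha ring they ran from 49.0 CPM per kilobase for *Psma2* to 254.3 for *Psma6*, a range of 5.19-fold, and in the beta ring from 46.0 for *Psmb7*, which carries the trypsin-like site, to 240.7 for *Psmb1*, a range of 5.23-fold. The ATPases ran from 21.9 for *Psmc2* to 155.8 for *Psmc6*. The non-ATPases had a range of 13.7-fold, from 5.98 for *Psmd1*, the large scaffold subunit, to 82.1 for *Psmd6*. *Psmg3*, part of a chaperone pair that starts the alpha ring, was the lowest of its role at 2.90 and its partner *Psmg4* the highest at 70.0, and *Psmf1*, which encodes the inhibitor PI31, stood at 2.08. The order depends on the length used. An alternative added after the data were seen used the length of the principal transcript in place of the exonic length of the count table. The count table gives a shorter length than the principal transcript for *Psmb1* (1036 against 1758 bases), *Psmc6* (1564 against 2234) and *Psmb5* (871 against 899). This raises their level by exonic length. By principal transcript the medians were 160.8 CPM per kilobase in the beta ring, 120.9 in the alpha ring and 107.1 in the ATPases. The alpha ring thus stood above the ATPases. The medians were 57.1 in the non-ATPases, 28.9 among the activators and inhibitor and 16.9 among the chaperones. On the same scale *Psmb1* moved from the highest in the beta ring to 141.9 and *Psmb6* became the highest at 396.5, *Psmc3* was highest among the ATPases at 116.5, and the ranges of those roles narrowed to 4.45-fold and 2.60-fold. *Psma6* stayed the highest alpha subunit at 301.2, and *Psmd6* and *Psmg4* the highest of theirs. Of the lowest genes, *Psmb7* moved to 135.7 and *Psmg3* to 9.49, with *Psmb2* (89.1), *Psmc4* (44.8) and *Psmd5* (5.29) then the lowest of their roles.

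None of the 45 tested genes passed the test between the genotypes. With edgeR's quasi-likelihood test and Benjamini-Hochberg adjustment over 15075 genes, 0 had an adjusted p under 0.05, where 2.27% of all tested genes did (0.896% higher and 1.37% lower in KO muscle). The share called was likewise 0 of 45 with limma-voom (background 2.11%), and 1 of 45 with DESeq2 (background 4.96%), namely *Psmd8*. At an unadjusted p under 0.05 there were 4 genes (8.89%), *Psmd8*, *Psmd14*, *Psme2* and *Psmd6*, all lower in KO muscle, while 19.8% of all tested genes and 22.9% of the 9848 genes with a mean CPM in the same range (4.97 to 316) had such a p. The lower end of that range is the mean of *Psmc3ip*, and genes within it were not matched to the members by level. No test compared these shares.

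The interval of each gene shows how large a difference its data leave room for. These intervals are for single genes and were not adjusted for the number of genes. The 1.5-fold limit used here was not part of the planned analyses. For 44 of the 45 genes the 95% interval of the fold change lay within 1.5-fold in either direction, as it did for 58.5% of all tested genes and 80.6% of those in the same CPM range. The exception was *Psmg3*, whose interval reached -0.60 on the log2 scale (KO over WT). *Psmd6* came close to the limit, with an interval that reached -0.58. Across the 45 genes no interval went above 0.43. The log2 fold changes themselves, called log2 differences from here on and given as KO over WT, ran from -0.33 (*Psmd8*) to 0.21 (*Psmb7*), with 15 above 0 and 30 below 0 and a median of -0.03, beside 49.6% below 0 and a median of 0.00 for all tested genes. Summed over the 45 genes, the WT mice 583, 584 and 595 had 5824, 5408 and 5839 CPM and the KO mice 588, 589 and 591 had 5613, 5254 and 5353, so that WT mouse 584 lay within the KO range. The spread between mice of one genotype was small, with a median coefficient of variation of 7.0%, from 1.54% for *Psmd13* to 14.5% for *Psmc3ip*, against 9.44% for genes in the same CPM range.

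**Figure D2:**
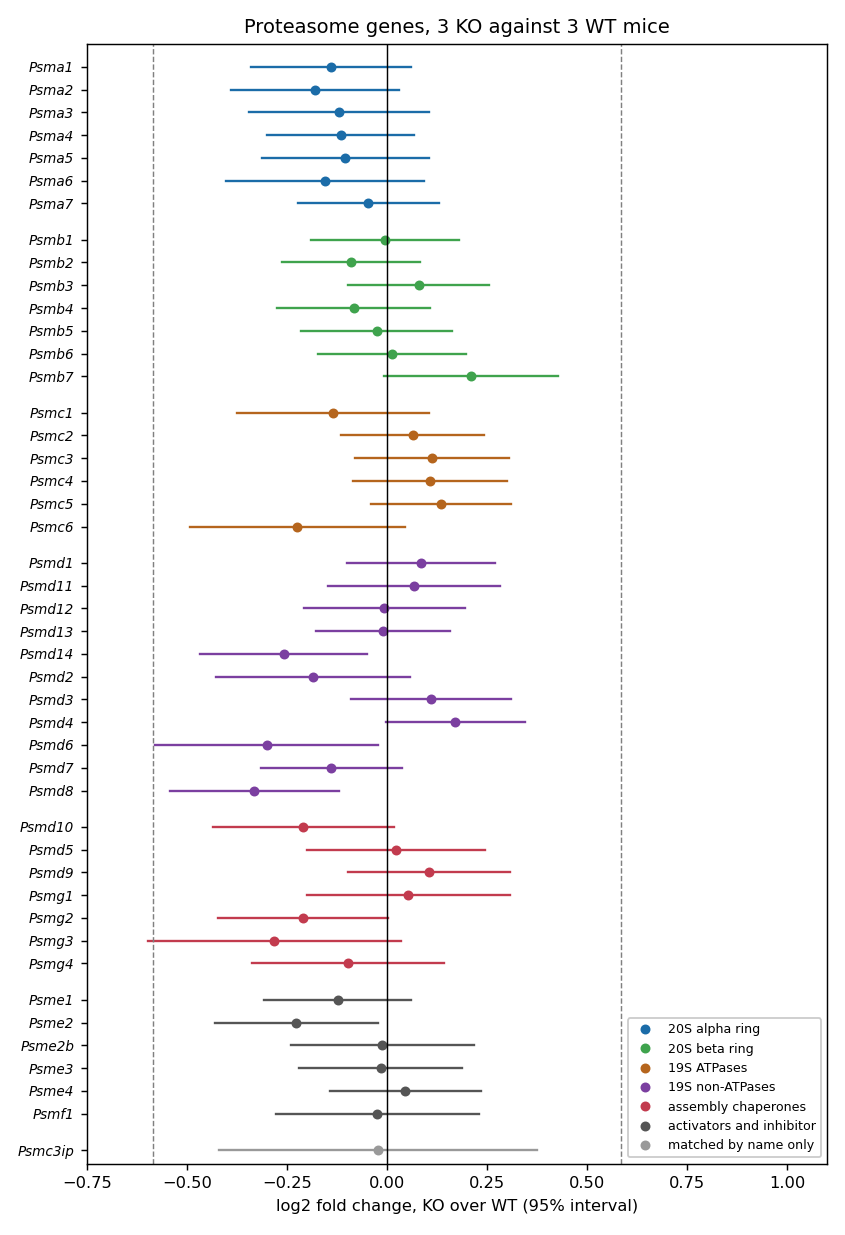
Log2 fold change (KO over WT) of the 45 tested genes with 95% intervals built from the edgeR fit, 3 mice per genotype. Genes are grouped by role, with dashed lines at 1.5-fold. The points lie between -0.33 and 0.21, and of the intervals that of *Psmg3* passes a dashed line.

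Among the alpha ring genes, which form the gate of the core, all 7 tested genes had a log2 fold change below 0, with a median of -0.12, and 0 passed the test. *Psma2* was the lowest at -0.18 (standard error, SE, 0.10, edgeR adjusted p = 0.325). Its level was 192.5, 184.8 and 196.8 CPM in the WT mice 583, 584 and 595 and 187.9, 152.4 and 165.9 CPM in the KO mice 588, 589 and 591, so that the genotypes overlapped. *Psma6* had 360.6, 282.8 and 348.5 CPM in the WT mice and 327.9, 284.9 and 278.5 CPM in the KO mice. WT mouse 584 had less than the KO mice 588 and 589. The same held for the ring as a whole, since the median log2 difference of its 7 genes from the WT mean was 0.03, -0.09 and 0.05 in the WT mice and -0.02, -0.18 and -0.21 in the KO mice, with KO mouse 588 above WT mouse 584.

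The beta ring genes lay on both sides of 0. The 7 tested had a median log2 difference of -0.0046, 3 above 0 and 4 below, and 0 passed the test. *Psmb1*, the most abundant of them by exonic length, had 236.9, 253.3 and 259.1 CPM in the WT mice and 245.6, 244.9 and 256.5 CPM in the KO mice. The KO values lay inside the WT range, with a 95% interval of the log2 fold change from -0.19 to 0.18. The chymotrypsin-like subunit *Psmb5* (-0.03) and the caspase-like subunit *Psmb6* (0.01) were also near 0. *Psmb7* was the highest at 0.21 (SE 0.10, edgeR adjusted p = 0.271), with 134.0, 163.8 and 140.3 CPM in the WT mice and 168.7, 158.4 and 179.1 CPM in the KO mice. KO mouse 589 lay below WT mouse 584. Of the 50-base stretches of *Psmb7* transcripts, 28.1% also occur in transcripts of another gene, mostly *Nek6* on the opposite strand. Whether the counting used strand is not given in the sources used here. Over 10% of such stretches were shared with other genes for 15 of the 47 genes, among them *Psmb5* (57.1%) and *Psmg3* (21.8%).

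In the 19S cap, the 6 ATPases had a median log2 difference of 0.09, with 4 above 0 and 2 below, and 0 passed the test. *Psmc5* separated the genotypes with all KO mice above all WT mice, by 0.14 (edgeR adjusted p = 0.378). *Psmc6* stood at the other end with -0.22 (SE 0.12, edgeR adjusted p = 0.339), from 278.4, 227.0 and 282.4 CPM in the WT mice and 262.1, 208.5 and 204.0 CPM in the KO mice. As for *Psma6*, WT mouse 584 was low among the WT mice and KO mouse 588 high among the KO mice. *Psmc2*, the ATPase with the lowest level per length by exonic length, had a log2 fold change of 0.06.

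The 11 non-ATPase genes held 3 of the 4 lowest unadjusted p-values. *Psmd8* encodes a structural lid subunit and is at chr7:29174188-29180701 (minus strand, as the count table gives it). It had 232.4, 207.8 and 257.9 CPM in the WT mice and 189.3, 185.1 and 180.3 CPM in the KO mice. All KO mice lay below all WT mice, at 233 ± 25.0 CPM (SD, n = 3) in WT muscle and 185 ± 4.46 CPM (SD, n = 3) in KO muscle. The log2 fold change was -0.33 (standard error 0.10, 95% interval -0.54 to -0.12), with an unadjusted p of 0.00534 and an adjusted p of 0.0934 from edgeR. The exact two-sided permutation test gave p = 0.1, the smallest that 3 mice against 3 allow. DESeq2 gave an adjusted p of 0.0345, and without WT mouse 584 edgeR gave 0.0389, whereas the adjusted p was between 0.149 and 0.260 without any other mouse. Without a filter on low counts it was 0.0325, the lowest over all alternatives.

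*Psmd14*, the deubiquitinase that cuts the ubiquitin chain from the substrate, had 99.4, 86.4 and 101.7 CPM in the WT mice and 85.7, 80.5 and 74.2 CPM in the KO mice. The genotypes were separated by less than 1 CPM, and the log2 difference was -0.26 (SE 0.09, edgeR adjusted p = 0.162). *Psmd6*, a lid subunit, had 275.1, 214.8 and 271.4 CPM in the WT mice and 241.2, 190.1 and 186.6 CPM in the KO mice. KO mouse 588 lay above WT mouse 584, and the log2 difference was -0.30 (SE 0.13, edgeR adjusted p = 0.218). The lid subunit *Psmd7*, which pairs with the *Psmd14* product, had 161.2, 153.3 and 159.1 CPM against 148.1, 140.7 and 141.1 CPM, a log2 difference of -0.14 (edgeR adjusted p = 0.367). The ubiquitin receptor *Psmd4* went the other way without passing the test, at 85.9, 90.3 and 92.0 CPM in the WT mice and 98.3, 101.4 and 102.1 CPM in the KO mice. All KO mice lay above all WT mice by a small margin, with a log2 difference of 0.17 (SE 0.08, edgeR adjusted p = 0.259). The scaffold *Psmd1* was at 0.08, with a 95% interval from -0.10 to 0.27.

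**Figure D3:**
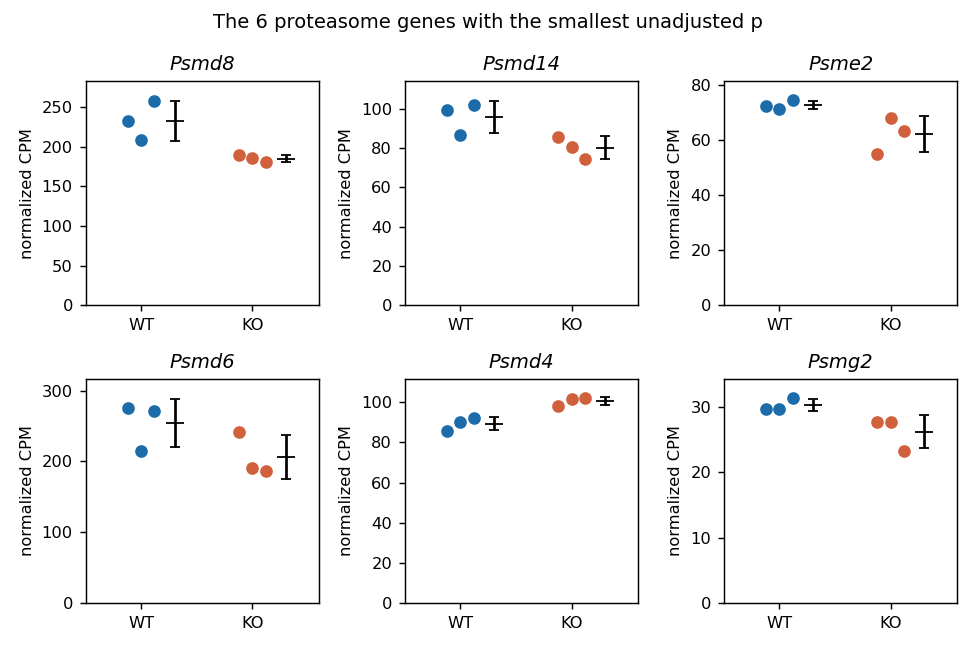
TMM-normalized CPM of the 6 proteasome genes with the smallest unadjusted p, with 1 point per mouse and the mean ± SD beside them, each axis starting at 0. KO points lie below WT points for *Psmd8*, *Psmd14*, *Psme2* and *Psmg2*, above them for *Psmd4*, and overlap for *Psmd6*.

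In all, the genotypes did not overlap for 10 of the 45 genes (22.2%), which is near the 24.6% of all tested genes. In 8 of the 10 (17.8% of the 45) the KO mice were lower, namely *Psma7*, *Psmb2*, *Psmd7*, *Psmd8*, *Psmd14*, *Psmg2*, *Psme1* and *Psme2*, where 12% of all tested genes were. In the other two, *Psmc5* and *Psmd4*, the KO mice were higher, as in 12.6% of all tested genes. *Psma7*, *Psmb2*, *Psmc5* and *Psme1*, as well as *Psmd13*, *Psmb5*, *Psmb6*, *Psmc3*, *Psmc4*, *Psmd5* and *Trim63*, are outside the rule for named genes. They were chosen after their values were seen, as were the genes of the pattern by mouse and, further on, *Myh4*, *Lep* and *Fabp4*.

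The assembly chaperones, which guide the rings and caps together and are not part of the finished particle, had a median log2 difference of -0.10, with 3 above 0 and 4 below, and 0 of 7 passed the test. *Psmg2*, which with *Psmg1* holds the first alpha ring, had 29.7, 29.8 and 31.4 CPM in the WT mice and 27.6, 27.7 and 23.3 CPM in the KO mice. The KO mice lay below the WT mice, with a log2 difference of -0.21 (SE 0.10, edgeR adjusted p = 0.259). *Psmg3* had 8.89, 9.67 and 9.03 CPM in the WT mice and 9.03, 6.92 and 6.75 CPM in the KO mice, a log2 difference of -0.28 (SE 0.14, edgeR adjusted p = 0.310), with KO mouse 588 inside the WT range. Its partner *Psmg4* was at -0.10, with 38.5, 35.3 and 46.7 CPM against 36.0, 37.3 and 39.4 CPM, and lay above 0 when WT mouse 595 was left out. *Psmd10*, which encodes gankyrin, a chaperone of the ATPase ring, had 36.7, 28.7 and 34 CPM in the WT mice and 29.1, 29.1 and 27.7 CPM in the KO mice (log2 fold change -0.21, edgeR adjusted p = 0.291). WT mouse 584 again lay within the KO range.

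Of the 6 genes of activators and the inhibitor, 1 was above 0 and 5 were below, with a median of -0.02, and 0 passed the test. *Psme2*, which encodes a subunit of the interferon-inducible 11S activator, had 72.4, 71.3 and 74.4 CPM in the WT mice and 55.1, 68.2 and 63.2 CPM in the KO mice. All KO mice lay below the WT mice, with KO mouse 588 lowest, and the log2 difference was -0.23 (SE 0.09, edgeR adjusted p = 0.205). *Psme2b*, a near-identical copy, had 36.8, 35.3 and 33.8 CPM in the WT mice and 40.1, 31.4 and 33.4 CPM in the KO mice (log2 fold change -0.01). Since 59.3% of the 50-base stretches of *Psme2* and 69.3% of those of *Psme2b* also occur in transcripts of other genes, how reads were split between the copies is uncertain. The inhibitor *Psmf1* was at -0.02 with a 95% interval from -0.28 to 0.23, and *Psmc3ip* at -0.02 with -0.42 to 0.37.

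A pattern by mouse was seen in part of the genes. WT mouse 584 was the lowest of the WT mice for 23 of the 45 genes and the highest for 13. KO mouse 588 was the highest of the KO mice for 19. These counts were not taken over all tested genes. WT mouse 584 lowest together with KO mouse 588 highest was found for 15 of the 45 genes (33.3%). This held for 15.2% of all tested genes. The 15 were *Psma1*, *Psma2*, *Psma3*, *Psma4*, *Psma6*, *Psmb4*, *Psmc1*, *Psmc5*, *Psmc6*, *Psmd2*, *Psmd6*, *Psmd7*, *Psmd8*, *Psmd12* and *Psmd14*. The pattern was noticed in these data and got no test. Of 10 muscle fibre markers, 2 had the same order, *Acta1* and the fast myosin heavy chain gene *Myh4*, and the other 8 did not. *Myh4* had 7526, 5612 and 7253 CPM in the WT mice and 8078, 6289 and 5536 CPM in the KO mice. The part of muscle fibre genes in the pattern was not tested.

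**Figure D4:**
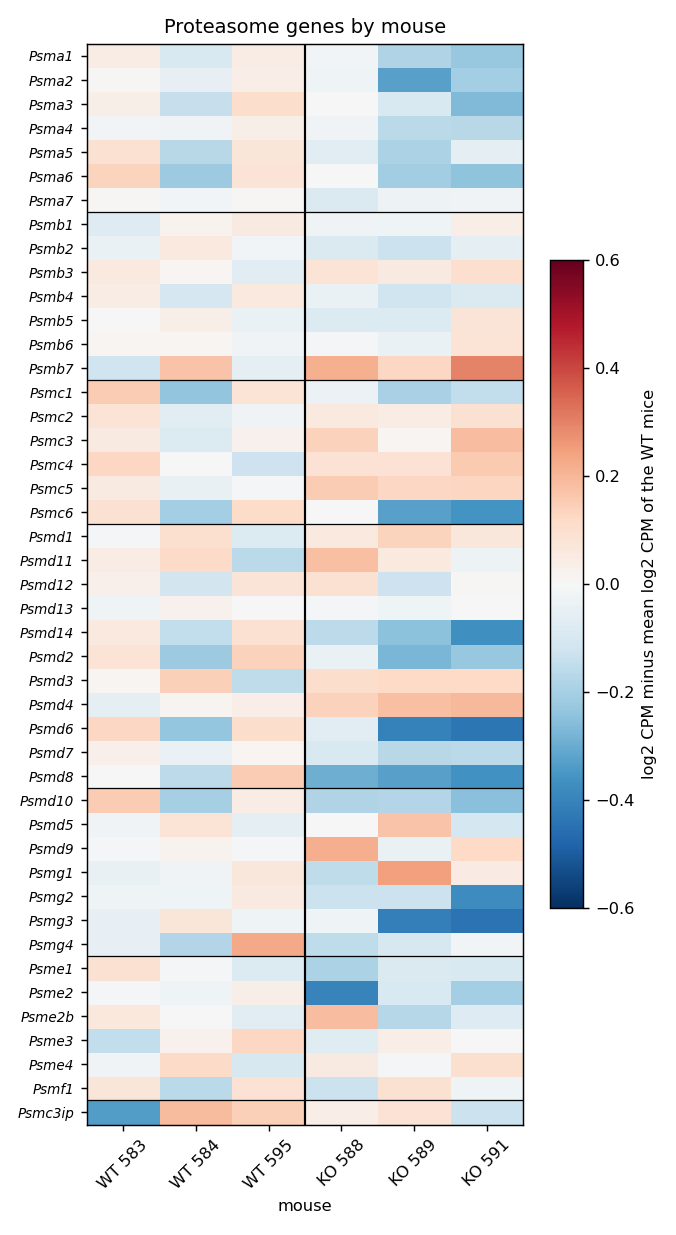
Log2 CPM of the 45 tested genes in each mouse minus the mean of the WT mice, with genes in rows ordered by role and a vertical line between the genotypes. WT mouse 584 is blue and KO mouse 588 near white for *Psma6*, *Psmc6* and *Psmd6*, while the KO mice 589 and 591 are blue.

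The immunoproteasome genes, which replace the cutting subunits of the constitutive core after interferon exposure and are abundant in leukocytes, are not among the 47. Of these 3 genes, *Psmb9* was lower in KO muscle, with 16.8, 15.4 and 16.7 CPM in the WT mice and 9.09, 10.2 and 12 CPM in the KO mice. The genotypes did not overlap, and the log2 difference was -0.64 (SE 0.12, edgeR adjusted p = 0.0241). Its adjusted p was 0.106, 0.0826, 0.0689 and 0.0802 without WT mouse 583, WT mouse 595, KO mouse 588 and KO mouse 589, and was at most 0.0287 in the other alternatives. *Psmb8* (39.9, 30.2 and 38.1 CPM against 22.3, 27.8 and 27.5) had a log2 difference of -0.48 with an adjusted p of 0.0696, and *Psmb10* (48.2, 48.6 and 51.4 CPM against 40.3, 37.8 and 42.1) one of -0.30 with an adjusted p of 0.0836, both from edgeR. For *Psmb8* the adjusted p was 0.0225 with DESeq2, 0.00092 without a filter on low counts and 0.0231 without WT mouse 584, and over the other alternatives it lay between 0.0644 and 0.230. In both, all KO mice lay below all WT mice.

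Set against the constitutive subunit that each replaces, on the scale of CPM per kilobase, *Psmb9* was 2.70%, 2.47% and 2.76% of *Psmb6* in the WT mice and 1.48%, 1.71% and 1.84% in the KO mice. *Psmb8* was 5.67% ± 0.906 (SD, n = 3) of *Psmb5* in WT muscle and 4.13% ± 0.457 (SD, n = 3) in KO muscle. *Psmb10* was 68.4% ± 7.73 (SD, n = 3) of *Psmb7* in WT muscle and 47.7% ± 0.443 (SD, n = 3) in KO muscle. In this last ratio the denominator also differed, since *Psmb7* had a log2 difference of 0.21 beside -0.30 for *Psmb10*. *Psmb7* shares transcript stretches with *Nek6*, and *Psmb5*, the denominator for *Psmb8*, shares them with other genes. Each of the 3 ratios separated the genotypes (exact two-sided permutation test, p = 0.1 for each and 0.1 after adjustment over the 3, the smallest that the design allows). The size of a percentage depends on the lengths used, whereas its ratio between mice does not. Over all 6 mice, *Psmb10* stood at 26.2 and *Psmb7* at 46.0 CPM per kilobase by exonic length. By principal transcript they stood at 34.1 and 135.7, so that the percentage is lower on that scale. For *Psmb8* and *Psmb9* the percentage is higher by principal transcript. Leukocyte markers lay on the same side as these genes. All 7 tested of the 8 listed were below 0, and *Csf1r*, *Cd74* and *Lyz2* passed the test. The summed level of the list was 994 to 1146 CPM in WT mice and 524 to 676 CPM in KO mice. Most of this sum was *Lyz2*, with 823 to 965 CPM in WT mice and 436 to 567 CPM in KO mice. The part of the leukocyte markers in the immunoproteasome result, and in that of *Psme1* and *Psme2*, was not tested. In bulk tissue fewer cells of a type and less RNA per cell cannot be told apart. Erythrocyte markers were also below 0 in 6 of 6 genes, with summed levels of 4748 to 10390 CPM in WT and 4166 to 4536 CPM in KO mice, and 0 of them passed the test. Of the endothelial markers 6 of 6 and of the fibroblast markers 5 of 5 were below 0, with 1 and 0 past the test. Of the adipocyte markers 4 of 5 were above 0 and 0 passed the test. The other, *Lep*, had a log2 difference of -1.01 (edgeR adjusted p = 0.116). The summed levels of the list, mostly of *Fabp4*, were 1800 to 2698 CPM in WT mice. They were 2197, 4121 and 2541 CPM in the KO mice 588, 589 and 591. Of 10 muscle fibre markers *Ckm* and *Myh1* were higher in KO muscle by the test.

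**Figure D5:**
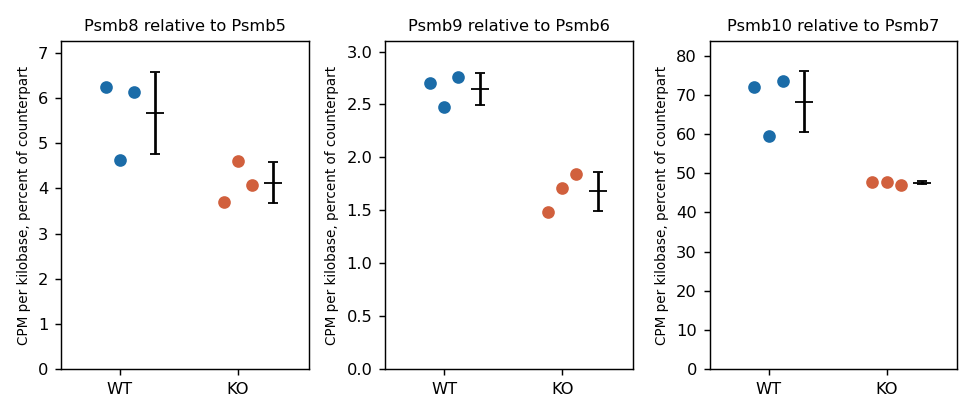
Level of each immunoproteasome gene as a percentage of the constitutive subunit it replaces, from CPM per kilobase in each mouse, with the mean ± SD beside the points and axes starting at 0. KO points lie below WT points in all 3 pairs, by a margin of under 0.1 percentage points between the nearest mice for *Psmb8*.

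The other genes of the pathway were ubiquitin genes, shuttles, further subunits, regulators and ligases. Of 43 listed, 42 were tested, 21 were above 0 and 21 below, with a median log2 difference of 0.00, and 0 passed the test, while 9 (21.4%) had an unadjusted p under 0.05, where 19.8% of all tested genes did. *Nfe2l1* had 183.6, 202.4 and 168.2 CPM in the WT mice and 215.9, 238.3 and 237.6 CPM in the KO mice. The KO mice lay above the WT mice, with a log2 difference of 0.32 (SE 0.10, edgeR adjusted p = 0.101). DESeq2 gave 0.0436, and the adjusted p ran from 0.0436 to 0.283 over all alternatives. The ubiquitin ligase *Fbxo32* (atrogin-1), a marker of muscle atrophy, had 26.8, 18.9 and 30.0 CPM in the WT mice and 49.1, 30.1 and 50.8 CPM in the KO mice, a log2 difference of 0.78 (SE 0.20, edgeR adjusted p = 0.0676). KO mouse 589 stood at 30.1 CPM beside 30.0 CPM in WT mouse 595, and without KO mouse 589 the adjusted p was 0.0211. DESeq2 gave an adjusted p of 0.00244 for *Fbxo32*, and over all alternatives it ran from 6.39e-10, without a filter on low counts, to 0.195. The other atrophy ligase listed, *Trim63* (MuRF1), had 174.0, 159.9 and 168.8 CPM in the WT mice and 239.1, 143.8 and 226.1 CPM in the KO mice, a log2 difference of 0.28 (edgeR adjusted p = 0.360), with KO mouse 589 below every WT mouse.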

How the data were processed

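Poly(A) RNA libraries of muscle were sequenced by the authors in paired ends and mapped with HISAT2 to mm10 (GRCm38), per the methods. The submitters' processing notes name Bowtie 0.12.2 and mm8 instead. The authors deposited raw counts for each gene, as whole numbers without normalization. The counting tool, its annotation and its use of strand are not given in the sources used here. Gene coordinates and exonic lengths are those of the count table, and promoter coordinates those of RefSeq on GRCm38.p6.

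Genes were kept by filterByExpr (minimum count 10, minimum total 15), which left 15075. After TMM scaling, KO was tested against WT by the quasi-likelihood method of edgeR 4.0.16 in R 4.3.3, with no covariate, with Benjamini-Hochberg adjustment over all tested genes and a threshold of 0.05. The labels number each mouse and do not tell of litters. The p-values set the difference between genotypes against the spread between these mice. An effect of litter could not be taken into account. Within a genotype, no pair of libraries was identical. edgeR's test gives no standard errors or intervals of fold changes. They were calculated from its log2 fold change, test statistic and degrees of freedom. These intervals include the spread between mice, whereas the floor of 3 counts covers counting error only.

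The genes, roles and related lists were chosen by hand with earlier results of these data known. The genes named were members with an adjusted p under 0.05, the next 12 by p, the highest and lowest per length in each role, members not tested, related genes called and the next 5, the immunoproteasome genes and *Tarsl2*. *Paaf1* of the related list was not analysed here. Some values of single genes are not reported here. The edgeR fit, and no other step, was also run on counts simulated from the means and spreads of these data. Alternatives were DESeq2 1.42.0, limma-voom (limma 3.58.1), RLE and upper quartile factors, no filter, at least 10 counts in every library, protein-coding genes only, and each mouse left out.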

Additional observations from a re-analysis of the deposited data

How the results depend on the processing

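The count of proteasome genes past the threshold was 0 in the analysis reported and in 10 of 13 alternatives, and 1 (*Psmd8*) with DESeq2 and without a filter on low counts. With each mouse left out it lay between 0 and 1, the 1 again being *Psmd8*, without WT mouse 584. The median log2 fold change of the proteasome genes was -0.0263 and lay between -0.0624 (without WT mouse 583) and -0.0439 (without WT mouse 595) with each mouse left out. Role medians with each mouse left out were 0.05 to 0.12 (19S ATPases), -0.06 to 0.00 (non-ATPases), -0.18 to -0.10 (alpha ring), -0.03 to 0.01 (beta ring), -0.0587 to -0.0227 (activators and inhibitor) and -0.182 (without WT mouse 584) to -0.0108 (without WT mouse 595) for the assembly chaperones. Of 260 values of the 20 named members under the alternatives, 243 kept their direction and side of the threshold. Those whose sign turned did so with single mice left out: *Psmb1* (-0.0457 to 0.0208), *Psmc3ip* (-0.173 to 0.0702), *Psme2b* (-0.122 to 0.0613), *Psmf1* (-0.0993 to 0.0275) and *Psmg4* (-0.182 to 0.0236). The cause was not tested. Related genes were counted here with the 3 immunoproteasome genes, 45 tested in all. Of all tested genes, 2.27% were past the threshold in the analysis reported and 4.96% with DESeq2. Among the related genes the count past the threshold was 1 (*Psmb9*), and was 4 with DESeq2 and without a filter. The count lay between 0 and 2 with each mouse left out. It was 0 without WT mouse 583, WT mouse 595 or KO mouse 588. Over all genes, 342 calls became 719 with DESeq2, 1437 without a filter, and 81 (without WT mouse 583) to 625 (without WT mouse 584) with a mouse left out. *Psma8* and *Psmb11* had too few counts to be tested in the analysis reported. No paired analysis was possible because no number is shared by a WT and a KO mouse in the labels.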
